A study of Mus musculus with 18 samples.

Results

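Embryonic mouse ventricles labelled Irx4KO were compared with wild-type (WT) ventricles. The 3 libraries labelled Irx4KO (2, 3 and 4) and the 3 WT libraries (1, 2 and 3) differed in technical profile, so the difference was carried through libraries labelled Irx3KO_Irx4KO, called DKO after that label. Irx4 counts were higher in them than in WT, as they were in the libraries labelled Irx4KO. DKO was the only genotype found with both profiles. The bridged difference was Irx4KO minus DKO 2, 3 and 4, plus DKO 5, 7 and 10 minus WT. It drew on 12 of the 18 libraries of the series. The unbridged difference was plainly Irx4KO minus WT.

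All animals were embryos at stage E14.5, and polyA RNA came from dissected heart ventricles. The labels name the genotypes only. The sources used here do not state the alleles, the part of each gene removed, the strain background or whether each library is a separate embryo. The p-values therefore measure a spread between libraries that could be technical. The other 6 libraries, 3 labelled Irx3KO and 3 labelled Irx3het_Irx4het, entered only the shared estimate of the spread. Library totals ran from 26721576 to 45946741 estimated counts. Ventricular Myl2 stood at between 12714 and 16886 TPM (the share of transcripts after scaling for length) in the 12 libraries, against 905 to 2424 TPM for Myl7, the atrial light chain, and 6.19 to 28.3 TPM for Sln, an atrial calcium pump inhibitor. Not every atrial marker was low. Myl4, another atrial light chain, was at 2414 to 3534 TPM, above ventricular Myh7 at 1132 to 2032 TPM. Ventricular Myl3 was at 3416 to 4501 TPM. The Y-linked genes were near 0 in DKO 4 and WT 3 among the 12, at 1.10 and 0.883 CPM (counts per library set to a common total), so sexes were mixed unevenly.

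Irx4 encodes an Iroquois homeobox transcription factor that is restricted to the ventricles of the developing heart, where it helps to keep ventricular genes on and atrial genes off. Its relative Irx3 is expressed in the inner, trabecular wall and in the fast conduction system. Iroquois proteins act as dimers with each other and with other partners, and Iroquois sites on DNA are often written as a short palindrome.

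Irx4 was the single gene that passed the test as higher in the bridged difference, so its promoter is shown here with those of Klhl18 and Lyz1, which passed as lower, and of Gja1, the main connexin of ventricular muscle. Each line gives the 250 bases before the annotated start in lower case and the first 30 bases after it in capitals, on the strand of the gene. The sequences are from RefSeq in GRCm38.p6, with the window at chr13:73260247-73260526 on the plus strand for Irx4, at chr9:110476665-110476944 on the minus strand for Klhl18, at chr10:117292839-117293118 on the minus strand for Lyz1 and at chr10:56377050-56377329 on the plus strand for Gja1.
Irx4: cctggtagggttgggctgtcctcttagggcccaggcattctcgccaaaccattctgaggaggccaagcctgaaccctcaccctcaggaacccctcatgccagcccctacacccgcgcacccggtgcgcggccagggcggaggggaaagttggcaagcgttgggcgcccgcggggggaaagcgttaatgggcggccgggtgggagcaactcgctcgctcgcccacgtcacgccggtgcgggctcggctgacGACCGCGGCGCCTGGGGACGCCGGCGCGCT
Klhl18: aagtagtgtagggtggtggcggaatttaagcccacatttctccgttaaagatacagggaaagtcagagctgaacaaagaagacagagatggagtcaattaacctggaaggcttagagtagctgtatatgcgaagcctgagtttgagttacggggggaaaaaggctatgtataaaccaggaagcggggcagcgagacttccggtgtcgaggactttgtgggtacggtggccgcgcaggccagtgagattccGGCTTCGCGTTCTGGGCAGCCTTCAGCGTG
Lyz1: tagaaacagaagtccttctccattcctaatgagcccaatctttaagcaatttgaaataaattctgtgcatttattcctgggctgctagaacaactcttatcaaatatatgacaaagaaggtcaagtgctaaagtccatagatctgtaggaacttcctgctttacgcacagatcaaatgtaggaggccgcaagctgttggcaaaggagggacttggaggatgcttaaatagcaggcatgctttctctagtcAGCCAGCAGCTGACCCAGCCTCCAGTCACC
Gja1: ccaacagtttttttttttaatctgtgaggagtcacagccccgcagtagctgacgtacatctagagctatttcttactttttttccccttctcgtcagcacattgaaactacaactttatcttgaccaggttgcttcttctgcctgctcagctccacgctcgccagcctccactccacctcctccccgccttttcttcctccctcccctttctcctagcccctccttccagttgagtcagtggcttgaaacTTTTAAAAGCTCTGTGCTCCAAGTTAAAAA
The Iroquois palindrome ACANNTGT, which reads the same on both strands, was in none of the 4 windows, which RefSeq extends to 50 bases after the start. It was in a window of 628 of 12142 genes with a promoter in the table, or 5.17%, and in 3 of the 52 genes with a promoter among the 71 of smallest bridged p described further on. The absence of these letters says nothing about binding elsewhere. The window of Irx4 had 70.7% G and C, and the median window had 60.0%.

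The targeted gene went against its label. Irx4 stood at 219, 216 and 239 CPM in the libraries labelled Irx4KO 2, 3 and 4. It stood at 237, 229.9 and 221 CPM in DKO 2, 3 and 4, at 282, 218 and 260.3 CPM in DKO 5, 7 and 10, and at 82.6, 78.8 and 126 CPM in WT 1, 2 and 3. Every library labelled knockout for Irx4 was thus above every WT library, in both technical profiles. The bridged log2 fold change was 1.37 ± 0.19 (SE; edgeR adjusted p = 0.0137), against an unbridged 1.23 ± 0.14 (adjusted p = 4.6e-05). The whole bridged rise lay in DKO 5, 7 and 10 against WT, where the log2 difference was 1.40 ± 0.14, and Irx4KO minus DKO 2, 3 and 4 gave -0.03 ± 0.14. With a fit of only the 12 libraries the adjusted p was 0.0956, the highest of 22 alternatives, and without DKO 4 it was 0.0509.

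The extra Irx4 counts were not spread evenly over its transcripts. Irx4-202 held 88.3 to 91.8% of the gene's counts in the libraries labelled Irx4KO and 76.9 to 86.6% in WT libraries. Irx4-201 held 8.23 to 11.7% in the libraries labelled Irx4KO and 13.4 to 23.1% in WT libraries, and the groups did not overlap. Counts per gene do not show whether reads fell in the part of Irx4 that was removed, so they do not test the knockout itself. Directions below are those of the libraries as labelled. In the libraries that were not compared here, Irx4 was at 135 to 158 CPM in those labelled Irx3KO and at 176 to 191 CPM in those labelled Irx3het_Irx4het.

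Irx3, the other targeted gene, was lower in every DKO library than in Irx4KO and WT libraries. It was at 22.2, 26.2 and 26.4 CPM in the libraries labelled Irx4KO, at 3.32, 3.82 and 3.83 CPM in DKO 2, 3 and 4, at 3.18, 4.33 and 3.80 CPM in DKO 5, 7 and 10, and at 22.1, 23.97 and 28.5 CPM in WT. The arms of the bridge were 2.77 ± 0.13 and -2.72 ± 0.13 on the log2 scale. They left a bridged difference of 0.04 ± 0.18 (edgeR adjusted p = 0.994), against an unbridged 0.002 ± 0.12 (adjusted p = 0.994). Irx3 differed by -0.04 ± 0.13 between the DKO libraries, so it does not show whether the bridge corrects a profile.

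**Figure D1:**
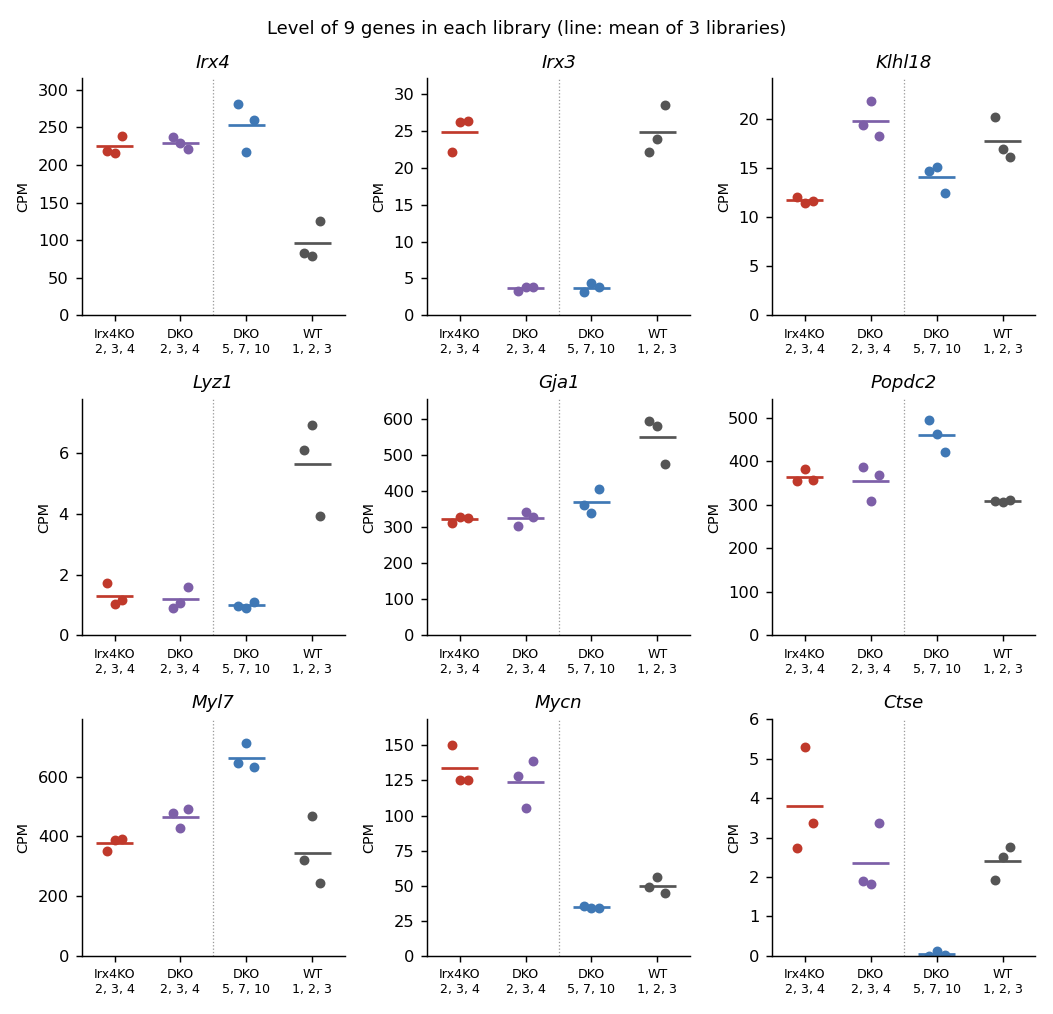
Level of 9 genes in each of the 12 libraries in CPM, with a line at the mean of 3 libraries; the dotted line parts the 2 technical profiles, Irx4KO and DKO 2, 3 and 4 on the left, DKO 5, 7 and 10 and WT on the right. Irx4 is high in all 9 libraries labelled knockout for it, Gja1 is highest in WT, and Mycn splits by profile rather than by genotype.

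The bridge left few differences. Of 16600 genes tested, 7 passed an adjusted p of 0.05, or 0.0422%. Irx4 was the 1 higher (0.00602%), and Lyz1, Klhl18, Ctse, Ccdc110 and the gene models Gm14410 and Gm43302 were the 6 lower (0.0361%). At an unadjusted p under 0.05 there were 1044 genes, or 6.29%. The count rested on single libraries, since it was 61 without DKO 5, 15 without DKO 10, 14 without DKO 7, 11 without WT 2, 11 without WT 3, 4 without Irx4KO 2, 4 without Irx4KO 3 and 3 without DKO 4. DESeq2 called 90 genes.

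Klhl18 encodes a Kelch adaptor of a cullin ubiquitin ligase. It was at 12.05, 11.5 and 11.7 CPM in the libraries labelled Irx4KO, at 19.4, 21.9 and 18.3 CPM in DKO 2, 3 and 4, at 14.8, 15.1 and 12.5 CPM in DKO 5, 7 and 10, and at 20.2, 17.0 and 16.2 CPM in WT. The libraries labelled Irx4KO lay below all of the others. The bridged log2 fold change was -1.09 ± 0.19 (adjusted p = 0.0471), and the unbridged one was -0.60 ± 0.13 (adjusted p = 0.00603). Both arms were negative, at -0.76 ± 0.13 for Irx4KO minus DKO 2, 3 and 4 and -0.33 ± 0.13 for DKO 5, 7 and 10 minus WT, and the DKO libraries differed by 0.49 ± 0.13 (adjusted p = 0.0159). The call held under 9 of 22 alternative settings.

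Lyz1 encodes a lysozyme of macrophages and of gut epithelium. It was at 1.71, 1.03 and 1.16 CPM in the libraries labelled Irx4KO, between 0.899 and 1.60 CPM in the 6 DKO libraries, and at 6.07, 6.89 and 3.91 CPM in WT. Low levels were thus common to every library labelled knockout for Irx4. The bridged log2 fold change was -2.38 ± 0.37 (edgeR adjusted p = 0.0155), with arms of 0.13 ± 0.26 and -2.51 ± 0.26. The call held under 15 of 22 alternative settings. Lyz2, a near-identical copy with which Lyz1 can exchange reads, was at 10.2, 11.9 and 9.02 CPM in the libraries labelled Irx4KO and at 32.6, 61.7 and 24.5 CPM in WT. Its bridged difference of -1.22 ± 0.42 did not pass (adjusted p = 0.571), while the unbridged one of -1.93 did (adjusted p = 0.000859).

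No other macrophage marker passed the bridged test. Of 14 macrophage and leukocyte markers, Lyz1 was called lower in the bridged difference and none was called higher. Bridged values were negative for 11, against 8034 of all 16600 genes, and the median was -0.30, against 0.01 over all genes tested. The list median was -0.73 unbridged and -0.48 for DKO 2, 3 and 4 minus DKO 5, 7 and 10. Summed over the list, levels were 95.6 to 109 CPM in the libraries labelled Irx4KO, 95.2 to 104 CPM in DKO 2, 3 and 4, 107 to 149 CPM in DKO 5, 7 and 10, and 137 to 234 CPM in WT, so the libraries labelled Irx4KO and WT did not overlap. Those groups also differ in technical profile, and Lyz1 and Lyz2 count in the sums. Ptprc, the common leukocyte antigen, was at 0 in Irx4KO 3, Irx4KO 4 and DKO 4, and no other marker was at 0 in any of the 12 libraries. Fewer macrophages, less of these RNAs per macrophage and the technical profile cannot be told apart for these sums. The part of the whole list in the value of Lyz1 was not tested.

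In the other 4 calls the DKO libraries of both profiles also differed, with edgeR adjusted p from 3.82e-05 to 0.0296 for DKO 2, 3 and 4 minus DKO 5, 7 and 10. Ctse, the aspartic protease cathepsin E, had a bridged log2 value of -5.06 ± 0.74 (edgeR adjusted p = 0.0137), yet it was at 2.74, 5.30 and 3.37 CPM in the libraries labelled Irx4KO and at 1.93, 2.51 and 2.77 CPM in WT. The unbridged difference was 0.66 ± 0.38 (adjusted p = 0.254), opposite in sign. The bridged value came from the DKO libraries, with 69, 68 and 120 counts in DKO 2, 3 and 4 and 0, 4 and 1 counts in DKO 5, 7 and 10. Ccdc110, a coiled-coil gene, had 1, 0 and 2 counts in the libraries labelled Irx4KO, 13, 11 and 32 in DKO 2, 3 and 4, 9, 3 and 1 in DKO 5, 7 and 10, and 31, 25 and 51 in WT (adjusted p = 0.0147). The ratio of Irx4KO to WT in the summed counts, scaled for library size, was 0.0308. Its exact 95% interval of 0.00625 to 0.0925 covers counting error only. The fitted fold change of Ccdc110 depends on the prior count and is not given.

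Gm14410 and Gm43302 are gene models with no described function. Gm14410 was at 15.5, 16.6 and 17.7 CPM in the libraries labelled Irx4KO and at 24.002, 24.6 and 20.6 CPM in WT, with a bridged log2 fold change of -1.34 ± 0.18 (edgeR adjusted p = 0.0131) and an unbridged one of -0.48 ± 0.13 (adjusted p = 0.0164). Gm43302 was at 4.88, 5.75 and 5.50 CPM in the libraries labelled Irx4KO and at 9.87, 7.64 and 6.92 CPM in WT, with a bridged value of -1.88 ± 0.28 (adjusted p = 0.0137) and an unbridged value of -0.60 ± 0.19 (adjusted p = 0.0413). The bridged and unbridged values differ by DKO 2, 3 and 4 minus DKO 5, 7 and 10, which was 0.86 for Gm14410 and 1.28 for Gm43302 on the log2 scale.

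The genes next in line did not pass the bridged test and included several of heart muscle. Among those with positive values and at least 5 CPM, Popdc2, a Popeye-domain protein that binds cAMP in muscle membranes, was at 354, 382 and 358 CPM in the libraries labelled Irx4KO and at 309.8, 307 and 312 CPM in WT, without overlap. It was at 386, 309 and 368 CPM in DKO 2, 3 and 4 and at 494, 463 and 422 CPM in DKO 5, 7 and 10, which were highest. The bridged log2 value was 0.61 ± 0.12 (edgeR adjusted p = 0.0913) and the unbridged one 0.24 ± 0.08 (adjusted p = 0.0605). For Dph6, an enzyme of diphthamide synthesis, the bridged value was 1.06 ± 0.19 (adjusted p = 0.0858).

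For 3 other muscle genes both calculations gave positive values, and in each case the unbridged one passed. Mical2, an enzyme that oxidises actin, was at 539, 597 and 543 CPM in the libraries labelled Irx4KO and 412, 444 and 408 CPM in WT, with a bridged value of 0.47 ± 0.09 (edgeR adjusted p = 0.135) and an unbridged value of 0.41 ± 0.07 (adjusted p = 0.000648). Cap2, an actin-binding protein of muscle, was at 362, 384 and 365 CPM in the libraries labelled Irx4KO and 303, 282 and 299 CPM in WT, with a bridged value of 0.34 ± 0.08 (adjusted p = 0.196) and an unbridged value of 0.33 ± 0.06 (adjusted p = 0.000819). Fhl2, a LIM-domain protein of the heart muscle, was at 199, 219 and 206 CPM in the libraries labelled Irx4KO and 156, 117 and 162 CPM in WT, with a bridged value of 0.74 ± 0.16 (adjusted p = 0.178) and an unbridged value of 0.52 ± 0.11 (adjusted p = 0.00599). For Mical2 and Cap2 the 6 DKO libraries lay at the level of those labelled Irx4KO, between 518 and 620.1 CPM and between 362 and 380.4 CPM. The rest of this group had bridged log2 values of 0.996 for Micu3, a mitochondrial calcium uptake regulator, 0.84 for Sel1l3, 0.74 for Itgb1bp2, a muscle chaperone known as melusin, and 0.43 for Pirt, a regulator of sensory ion channels.

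Gja1 had the smallest bridged p of the ventricular genes. It was at 312, 329 and 326 CPM in the libraries labelled Irx4KO, at 304, 343 and 327 CPM in DKO 2, 3 and 4, at 361, 339.7 and 407 CPM in DKO 5, 7 and 10, and at 593, 580.3 and 475 CPM in WT. All 9 libraries labelled knockout for Irx4 lay below all WT libraries. The unbridged log2 fold change was -0.77 ± 0.09 (edgeR adjusted p = 3.59e-05), and the bridged one of -0.59 ± 0.12 did not pass (adjusted p = 0.142). Leaving out WT 3 brought the bridged adjusted p to 0.0282, and DESeq2 gave 0.00321. Over all 22 alternatives it reached up to 0.356. Within the profile of the libraries labelled Irx4KO, Gja1 was at 505 to 583 CPM in those labelled Irx3KO and at 477 to 511 CPM in those labelled Irx3het_Irx4het.

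Further negative values of small bridged p belonged to genes of varied function. Jmjd7, a lysyl hydroxylase, had a bridged log2 value of -0.99 (edgeR adjusted p = 0.0858) and an unbridged value of -0.96 (adjusted p = 0.00018). Aldh5a1, an enzyme of GABA breakdown, had -0.39 bridged and -0.24 unbridged, and Plppr1, a membrane protein of neurons, had -0.79 and -0.51. In contrast Fbxl20, an F-box protein of ubiquitin ligases, had -0.95 ± 0.19 bridged and -0.08 ± 0.13 unbridged. Its levels were 39.4, 38.2 and 37.3 CPM in the libraries labelled Irx4KO and 40.4, 33.2 and 47.5 CPM in WT, with DKO 5, 7 and 10 alone low at 19.9, 23.7 and 20.9 CPM. Nr3c2, the mineralocorticoid receptor, behaved likewise, with -1.002 ± 0.22 bridged and -0.20 ± 0.16 unbridged and with 5.71, 4.41 and 3.98 CPM in DKO 5, 7 and 10.

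**Figure D2:**
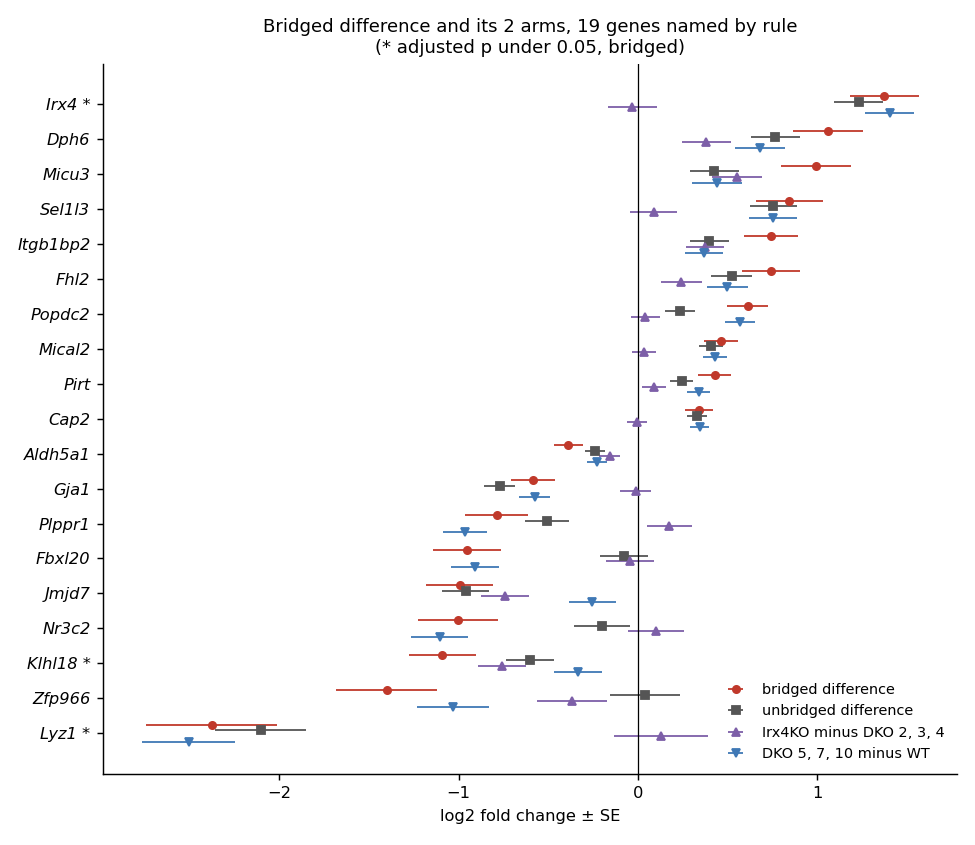
Log2 fold change with its SE for 19 genes named by rule, as the bridged difference, the unbridged difference and the 2 arms of the bridge. For Irx4, Lyz1 and Gja1 the arm of DKO 5, 7 and 10 minus WT carries the value and Irx4KO minus DKO 2, 3 and 4 lies near 0, while Fbxl20 and Nr3c2 have bridged values that the unbridged difference lacks.

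Without the bridge the picture was far larger. The unbridged difference called 2523 genes, or 15.2%, of which 1416 (8.53%) were higher and 1107 (6.67%) lower in the libraries labelled Irx4KO. The same contrast of profiles inside 1 genotype, DKO 2, 3 and 4 minus DKO 5, 7 and 10, called 3119 genes, or 18.8%, with 1618 higher (9.75%) and 1501 lower (9.04%). These 2 contrasts share no library. They called 1542 genes in the same direction, which is 61.1% of the unbridged calls and 49.4% of the calls in the DKO libraries, and 6 genes in opposite directions. Across the 16600 genes the 2 sets of log2 fold changes had a Pearson r of 0.452 and a Spearman rho of 0.564, over genes that are not independent of each other. The unbridged count was 1298 without WT 2, 1387, 1545 and 1665 without Irx4KO 2, 3 and 4, and 3788 without DKO 5, and the count in the DKO libraries was 1693 without DKO 3.

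The profiles had been told apart by the transcript length trends of the libraries, so the values on length describe them and test nothing. Spearman's rho between longest transcript length and log2 fold change was 0.366 for the unbridged difference, 0.376 within the DKO libraries and -0.02 for the bridged difference. The genes called higher in the unbridged difference had a median longest transcript of 6059.5 nt, those called lower 1751 nt, and all genes tested 2940 nt. Per library, rho between the deviation from the mean and length ran from 0.0266 to 0.330 in the 12 libraries with the profile of Irx4KO and from -0.401 to -0.217 in the 6 with that of WT. In a fit with genotype as the only term, the unbridged difference called 346 genes. It called 148 when the length trend of each library was removed in that same fit. The bridge had its price, since the median SE was 0.176 bridged and 0.124 unbridged, or 1.41 times as large. It assumes that the profiles differ in the same way in every genotype, which cannot be tested here because only DKO was found in both.

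**Figure D3:**
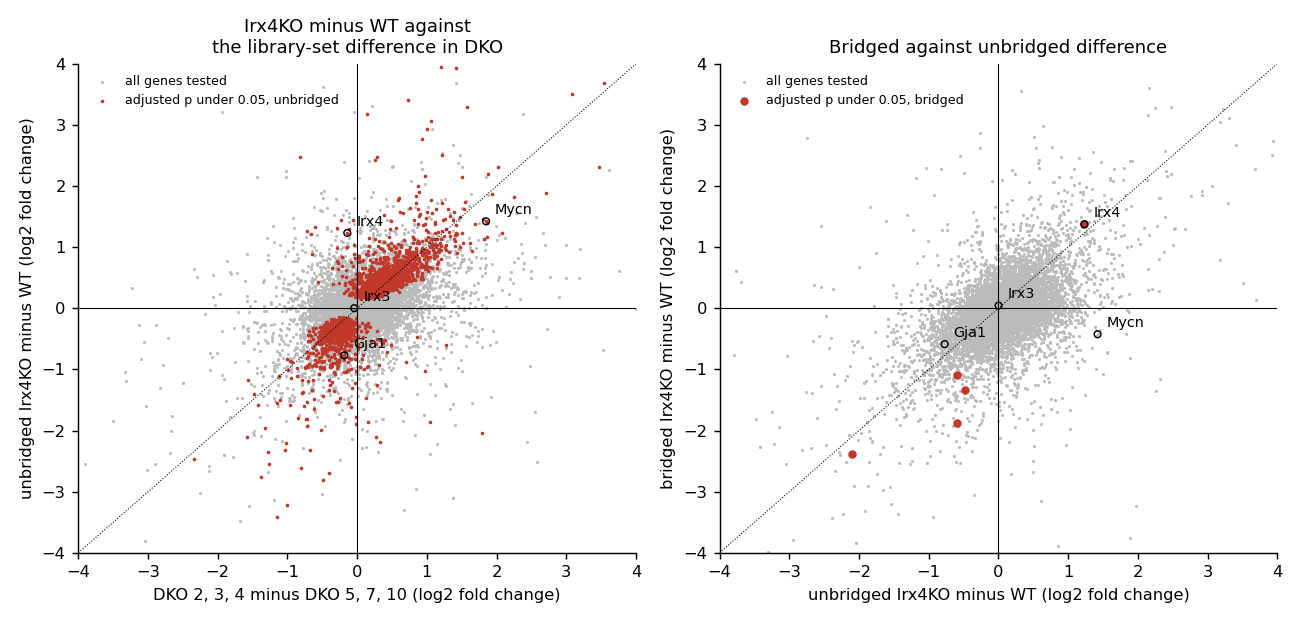
Left, the unbridged log2 fold change of each gene against DKO 2, 3 and 4 minus DKO 5, 7 and 10, with the genes of unbridged adjusted p under 0.05 in red; right, bridged against unbridged values, with the bridged calls in red, Ctse and Ccdc110 lying outside the axes. The unbridged calls follow the diagonal on the left, with Mycn far along it, and Irx4 and Gja1 lie off it; the 2 differences on the right share the Irx4KO and WT libraries, so their likeness is built in.

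Several genes of the largest unbridged differences also differed between the DKO libraries of the 2 profiles. Mycn, a transcription factor that drives growth of the compact wall, was at 151, 125 and 125 CPM in the libraries labelled Irx4KO, at 128, 105 and 139 CPM in DKO 2, 3 and 4, at 35.4, 34.2 and 33.9 CPM in DKO 5, 7 and 10, and at 49.1, 56.2 and 44.4 CPM in WT. The unbridged log2 fold change was 1.42 (edgeR adjusted p = 9.39e-07), the bridged one was -0.43 ± 0.15 (adjusted p = 0.56), and the difference in the DKO libraries was 1.85 (adjusted p = 2.61e-08). Hist1h2an and Hist1h2ad, which encode histone H2A and have near-identical copies, stood 7.30 and 6.51 higher unbridged, and 8.82 and 5.48 higher in DKO 2, 3 and 4 than in DKO 5, 7 and 10. Mlph, a melanosome transport protein, had 3.69 unbridged and 3.55 within the DKO libraries, and Zfp318, a zinc-finger protein, had 2.20 unbridged and 1.88 within the DKO libraries, where it did not pass (adjusted p = 0.0673). Gpam, an enzyme of triglyceride synthesis, Olfml2a, an extracellular protein, and Fv1, an antiviral factor, were named for bridged values of opposite sign. Their unbridged values were 1.40, 1.24 and 1.21, and their bridged values of -0.46 ± 0.60, -0.07 ± 0.51 and -0.22 ± 0.29 lay within their SE of 0 (adjusted p = 0.959, 0.996 and 0.961).

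Other large unbridged differences followed the profiles in part or not at all. Ccl21a, a chemokine of lymphatic vessels with near-identical copies, was at 6.29, 7.87 and 6.46 CPM in the libraries labelled Irx4KO, at no more than 0.0549 CPM in the 6 DKO libraries, and at 0.124, 0.0259 and 0.0954 CPM in WT. It was unbridged 6.32 higher on the log2 scale (edgeR adjusted p = 0.00497), and the bridged value of 4.91 had an SE of 6.44 because the DKO libraries gave it almost no counts. Mcm3ap, an mRNA export factor, was at 7.85, 1.23 and 0.902 CPM in the libraries labelled Irx4KO, between 19.6 and 39.3 CPM in the DKO libraries, and at 19.6, 27.9 and 17.99 CPM in WT, with -2.69 unbridged (adjusted p = 0.0234) and -2.28 ± 0.94 bridged (adjusted p = 0.718). Afp, the fetal liver protein, was at 0.553, 1.00 and 0.494 CPM in the libraries labelled Irx4KO and at no more than 0.0496 CPM in WT, and of 10 lung and liver markers only 2 had counts enough for the test, Afp and Ttr. Ppp1r17, a phosphatase inhibitor, Slc25a31, an ADP and ATP carrier, and Hbb-bh1, an embryonic globin, had unbridged values of -2.36, -2.11 and -1.98, values within the DKO libraries of -1.28, -1.58 and -0.52, and bridged values of -1.08, -0.53 and -1.46 that did not pass.

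Genes of the chambers were described by list. Over all 16600 genes tested, 8566 had positive and 8034 negative bridged values, and the unbridged difference called 8.53% higher and 6.67% lower. Of 12 atrial genes none passed the bridged test, 8 had positive values and the median was 0.35. Myl7 was at 350.3, 388 and 389.9 CPM in the libraries labelled Irx4KO, within the 321, 469 and 244 CPM of WT, while DKO 5, 7 and 10 stood at 644, 711 and 631 CPM. Its bridged value was 0.63 ± 0.22 (edgeR adjusted p = 0.577) and its unbridged value 0.13. Myh6, the fast atrial myosin, had 0.48 ± 0.17 bridged (adjusted p = 0.566) and 0.29 unbridged, and Stard10, a lipid transfer protein, had 0.98 ± 0.25 bridged (adjusted p = 0.255) and 0.37 unbridged. For Myh6 and Stard10, Irx4KO minus DKO 2, 3 and 4 was -0.17 and -0.19, and DKO 5, 7 and 10 minus WT was 0.65 and 1.16. The medians of the 12 atrial genes in these arms were -0.17 and 0.40. Of 12 ventricular chamber genes none passed the bridged test, with a median of -0.07, and the unbridged difference called 1 higher and 5 lower. Among the 5 were Gja1, Pln, the calcium pump inhibitor phospholamban, at -0.22, and Myl2 at -0.23, for which the bridged values were -0.59, -0.21 and 0.20.

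Sarcomere genes mostly had positive bridged values, none of which passed. Of 30 tested, 25 had positive bridged values, against 8566 of all 16600 genes, and the median was 0.23. The list median was 0.07 unbridged and -0.13 for DKO 2, 3 and 4 minus DKO 5, 7 and 10. No sarcomere gene was called in the bridged difference. The unbridged difference called 8 higher and 1 lower, against 8.53% and 6.67% of all genes. Acta1, skeletal actin, was at 202, 168 and 169 CPM in the libraries labelled Irx4KO, at 227, 81.9 and 113 CPM in DKO 2, 3 and 4, at 105, 199 and 192 CPM in DKO 5, 7 and 10, and at 69.5, 70.4 and 58.5 CPM in WT. All 9 libraries labelled knockout for Irx4 exceeded all WT libraries, the bridged value was 1.68 ± 0.46 (edgeR adjusted p = 0.365) and the unbridged one was 1.44 (adjusted p = 0.0109). Tnni2, fast skeletal troponin I, was at 29.7, 29.6 and 40.7 CPM in the libraries labelled Irx4KO and at 10.3, 16.4 and 15.01 CPM in WT, with 1.99 ± 0.49 bridged (adjusted p = 0.255) and 1.26 unbridged (adjusted p = 0.0286). Tnnt1, slow skeletal troponin T, was at 182, 164 and 231 CPM in the libraries labelled Irx4KO and at 299.6, 329 and 257 CPM in WT, with -0.62 ± 0.16 bridged (adjusted p = 0.251) and -0.62 unbridged (adjusted p = 0.00166).

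Calcium handling, conduction and wall genes gave no bridged call either. Of 14 calcium handling genes 12 had positive bridged values, against 8566 of all 16600 genes, and the median was 0.25. The list was led by Camk2d, a calmodulin kinase, at 0.32 ± 0.09, Trdn, the release channel anchor triadin, at 0.43 ± 0.13, and Calr, calreticulin, at 0.38 ± 0.13. Of 27 conduction and ion channel genes the median was 0.13 and the unbridged difference called 7 higher and 1 lower, against 8.53% and 6.67% of all genes. Kcnk3, a background potassium channel, was at 47.7, 50.8 and 51.1 CPM in the libraries labelled Irx4KO, at 45.3 to 54.3 CPM in DKO 2, 3 and 4, at 54.2 to 66.2 CPM in DKO 5, 7 and 10, and at 91.8, 104 and 71.7 CPM in WT. Its bridged value was -0.65 ± 0.17 (edgeR adjusted p = 0.253), and its unbridged value of -0.84 passed (adjusted p = 0.000257). Of 10 trabecular genes 4 had positive and 6 negative bridged values, and the median was -0.24. Sphkap had the smallest bridged p among them and a positive value, with 0.43 ± 0.13 bridged (edgeR adjusted p = 0.449) and 0.12 unbridged. Cited1, a trabecular transcriptional cofactor, was at 77.3, 72.3 and 74.8 CPM in the libraries labelled Irx4KO and at 128, 188 and 112 CPM in WT, with -0.54 ± 0.23 bridged (adjusted p = 0.726) and -0.93 unbridged (adjusted p = 0.00153). Of 6 compact wall genes the bridged median was 0.04, against an unbridged median of 0.34 with 3 called higher, Mycn among them.

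The Iroquois relatives and the neighbours of Irx4 were looked at next. Irx1, which lies near Irx4 on chromosome 13, was at 27.3, 26.7 and 27.6 CPM in the libraries labelled Irx4KO, at 24.1 to 27.9 CPM in DKO 2, 3 and 4, at 13.5 to 16.2 CPM in DKO 5, 7 and 10, and at 13.1, 11.9 and 14.004 CPM in WT. It split by profile, with 1.06 unbridged (edgeR adjusted p = 3.75e-06) and 0.20 ± 0.13 bridged (adjusted p = 0.889). Irx5 had -0.39 unbridged (adjusted p = 0.0284) and 0.15 bridged, and Irx2 and Irx6 had 0.08 and -0.46 bridged. Of 23 neighbours of Irx4 tested, none passed the bridged test and the median was 0.05. The smallest p among them was that of Nkd2, an inhibitor of Wnt signalling, at 12.05, 12.8 and 12.7 CPM in the libraries labelled Irx4KO and 10.2, 8.91 and 9.02 CPM in WT, with 0.67 ± 0.16 bridged (adjusted p = 0.22).

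Among markers of other cell types none but Lyz1 passed. The bridged medians were 0.07 for 14 endothelial and endocardial markers, 0.06 for 10 epicardial, 0.07 for 10 cushion and fibroblast, 0.08 for 9 smooth muscle and pericyte, -0.17 for 12 erythroid and 0.30 for 12 neural crest and neuron markers. The unbridged medians of the same lists were 0.05, -0.15, 0.07, 0.41, 0.11 and 0.23. In the neural list Nefl, the light neurofilament chain, was at 4.95, 6.25 and 5.85 CPM in the libraries labelled Irx4KO and at 3.79, 4.20 and 3.98 CPM in WT, with 1.02 ± 0.25 bridged (edgeR adjusted p = 0.22). Summed, the neural markers were at 47.2 to 53.3 CPM in the libraries labelled Irx4KO, 49.5 to 54.8 CPM in DKO 2, 3 and 4, 55.0 to 67.0 CPM in DKO 5, 7 and 10 and 47.2 to 53.0 CPM in WT.

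Growth, metabolism and matrix lists also held no bridged call. Of 18 cell cycle genes 16 had negative bridged values, against 8034 of all 16600 genes, with a median of -0.12. Their median was -0.05 unbridged and 0.11 within the DKO libraries. Summed, they were at 2550 to 2844 CPM in the libraries labelled Irx4KO and lower in WT, at 2388 to 2452 CPM. The sums were 2727 to 3198 CPM in DKO 2, 3 and 4 and 1876 to 3002 CPM in DKO 5, 7 and 10. The bridged median was -0.12 for 17 glycolysis and hypoxia genes and -0.05 for 25 fatty acid oxidation and respiration genes. Over all genes tested, the unbridged difference called 6.67% lower and 8.53% higher. It called 9 of the 17 glycolysis and hypoxia genes lower, 7 of the 25 fatty acid and respiration genes lower and 11 of 18 matrix genes higher, where the matrix median was 0.32 unbridged and 0.04 bridged. Within the DKO libraries the medians of these lists were -0.24, -0.15 and 0.29. Jun, an immediate early transcription factor, had the smallest bridged p of the stress list, with -0.46 ± 0.11 (edgeR adjusted p = 0.223). Next by p were Hsph1 and Ier3, with positive values of 0.68 ± 0.28 and 0.49 ± 0.21, and 9 of the 14 members had positive values. The medians of 21 cardiac transcription factors, 24 trabeculation signals, 8 secreted Wnt antagonists and 14 immediate early and heat shock genes were 0.07, 0.02, -0.18 and 0.04.

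**Figure D4:**
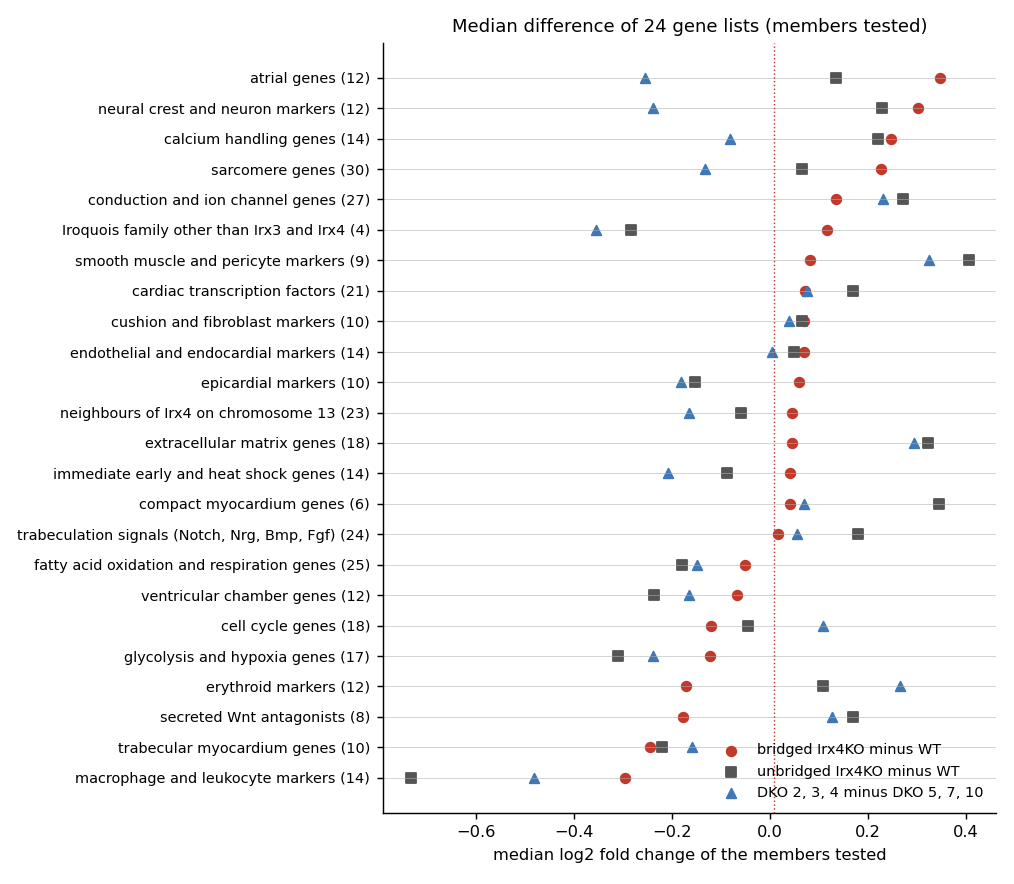
Median log2 fold change of the tested members of 24 gene lists for the bridged difference, the unbridged difference and DKO 2, 3 and 4 minus DKO 5, 7 and 10; numbers in brackets count the members tested and the dotted line is the bridged median of all genes; the lung and liver list is left out. Matrix, smooth muscle and macrophage lists lie farther from 0 unbridged than bridged, and the atrial, neural, calcium and sarcomere lists have the highest bridged medians.

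The smallest bridged p-values were most frequent on chromosome 2. Of the 71 genes at an unadjusted p under 0.001, which are 0.428% of all genes tested, 18 were among the 1371 tested on chromosome 2, or 1.31%. Chromosome 8, which carries Irx3, had 9 of 879, or 1.02%, and chromosome 13, which carries Irx4, had 5 of 600, or 0.833%. On chromosome 2, 9 of the 18 lay in a stretch of 30 neighbouring tested genes from Gm14391 to Gm14403, which holds a family of zinc-finger genes. The stretch was chosen after its values were seen. Its members resemble each other closely, so the authors' counting could have split reads among them and the level of each is uncertain.

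Within the stretch 25 of 30 genes had negative bridged values, with a median of -0.56, and Gm14410 was the member called. The unbridged median was -0.01, with 2 genes called, and the median within the DKO libraries was 0.54, with 14 genes called, all higher in DKO 2, 3 and 4. Zfp966, a zinc-finger gene there, was at 14.6, 16.7 and 15.4 CPM in the libraries labelled Irx4KO, at 18.5, 23.6 and 18.3 CPM in DKO 2, 3 and 4, at 5.74, 7.08 and 9.38 CPM in DKO 5, 7 and 10, and at 17.9, 15.7 and 11.8 CPM in WT. Its bridged value was -1.40 ± 0.28 (edgeR adjusted p = 0.135), its unbridged value was 0.04 and DKO 5, 7 and 10 alone were low. A difference of any kind between the DKO libraries of the 2 profiles, technical or inherited, enters the bridged value, and these cannot be told apart here.

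**Figure D5:**
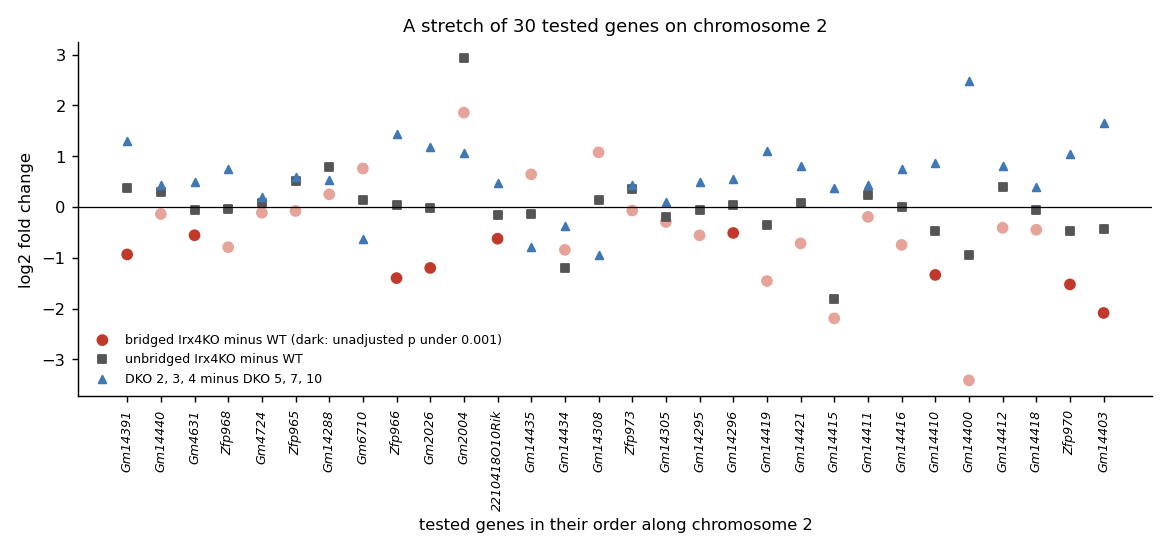
Log2 fold change of the 30 tested genes of the zinc-finger stretch on chromosome 2, in their order along the chromosome, as the bridged difference (dark where the unadjusted p is under 0.001), the unbridged difference and DKO 2, 3 and 4 minus DKO 5, 7 and 10. Most bridged values lie below 0 and most values within the DKO libraries above it, while the unbridged values scatter around 0 with a median of -0.01.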

How the data were processed

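PolyA RNA of E14.5 mouse ventricles was measured by RNA-seq in 18 libraries. The authors deposited kallisto tables with estimated counts and TPM per transcript, per the file headers. Per the submitters' processing notes, the tool was kallisto 0.42.2 and the genome mm9. Annotation release, strand setting and trimming were not given in the sources used here. As deposited by the authors, TPM are scaled for length, and they were used for the tissue check and to rebuild counts in an alternative.

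Of 88943 transcripts, 78002 (87.7%) were matched by identifier to GENCODE M21 (GRCm38). The other 10941 held 6.43 to 6.78% of counts and were left out. Estimated counts were summed over 28537 genes and rounded. Because the builds differ, gene coordinates are given only for RefSeq promoter windows. Replicates differed by more than sampling noise (smallest chi-square per gene 6.31).

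The quasi-likelihood F test of edgeR 4.0.16 (R 4.3.3; robust, TMM, filterByExpr, 16600 genes, common dispersion 0.0207) was fitted to 6 means of genotype and technical profile over all 18 libraries, with Benjamini-Hochberg adjustment at 0.05. Adjusted p-values come from it except where DESeq2 is named. The profiles are not named in the labels and come from the libraries' transcript length trends. The SE is the size of the log2 fold change over the square root of F, and fitted values use a prior count of 0.125. CPM use TMM factors. Overlap between groups refers to CPM. The test was tried on simulated data with known changes. In these the profiles differed in the same way in every genotype, so the trial does not test that assumption of the bridge.

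The comparison, 25 gene lists, tests and naming rule were chosen with earlier results of these data known. The rule names Irx3 and Irx4, up to 10 bridged genes a direction at 5 CPM or more (calls first, then smallest p), the 3 members of smallest p per list, the 5 largest unbridged calls a direction and 5 unbridged calls of opposite bridged sign. Gene models and Y-linked genes were passed over by it. Ctse, Ccdc110, Gm14410 and Gm43302 fell outside and are named because they are among 7 calls. Some genes the rule names are given only in the counts of their list. A further gene it names is not reported here. Alternatives were RLE factors, DESeq2 1.42.0, limma-voom (limma 3.58.1) with quality weights, other filters on low counts, TPM-based counts, only the 12 libraries, length trends removed, genotype alone, embryo sex, replicate blocks and each library left out.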

Additional observations from a re-analysis of the deposited data

Results flagged for a closer look

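In 6 of 109 named genes, 1 of the 6 DKO libraries stood apart from the other 5 by more than Dixon's 95% critical value of 0.625, where chance flags about 1 group in 20. The share flagged was thus near that rate. The critical value assumes 1 uniform group, while the 6 DKO libraries span both profiles. In DKO 5 these were Tnni2 at 101 CPM (the nearest other library had 53.1 CPM), Lyz2 at 19.7 CPM (nearest 11.7 CPM), Slc25a31 at 14.4 CPM (nearest 5.77 CPM) and Th, tyrosine hydroxylase, at 0.621 CPM (nearest 0.296 CPM). In DKO 7 it was Hsph1, a heat shock protein, at 55.0 CPM (nearest 36.3 CPM), and in DKO 4 it was Lyz1 at 1.60 CPM (nearest 1.10 CPM). The bridged value of each of these genes includes the library that stood apart.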

How the results depend on the processing

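The bridged count of 7 genes was 90 with DESeq2, 19 with limma-voom and quality weights and 4 with the replicate number as a random block in limma-voom, and it ran from 3 to 61 when each of the 12 libraries was left out. The unbridged count of 2523 was 4972 with limma-voom and quality weights and 346 with genotype as the only term. It was 148 with genotype as the only term and length trends removed, and it ran from 1298 to 3788 over the libraries left out. With a replicate block it was 2395 (random) and 1946 (fixed, Irx4KO and WT alone). The count of 3119 within the DKO libraries was 1549 with limma-voom and quality weights and ran from 1693 to 3885. The cause of these shifts was not tested. Under the other alternatives each count stayed within 1.5 times. Of the named genes' values under all alternatives, 17 bridged and 48 unbridged ones changed sign, none of them past the threshold as reported. Samples of the same replicate number did not deviate together (correlations from -0.0548 to 0.0327, consensus -0.0408), so no pairing by number was detected. The labels do not say what the numbers mean, so a pairing is not excluded. Of the 7 bridged genes, Gm14410 was called under all 22 alternatives and Klhl18 under 9. The bridged difference draws on 4 groups of 3 libraries, and its median SE was 1.41 times that of the unbridged one.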
